A study of Mus musculus with 22 samples.

Results

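Transcripts of 9 enzymes that salvage NAD or turn it into NADP were measured in mouse kidney: Nampt, Nmnat1, Nmnat3, Naprt, Nadsyn1, Nmrk1, Nadk, Nadk2 and Nnt. They were chosen by name as enzymes of these pathways and not by a rule on their values, though earlier results of these data were known. They matched 10 of the 55487 gene entries of the count table, because the symbol Nnt stands for 2 entries. The 22 mice were male wild-type C57BL/6JRj animals, 1 kidney library each, in 3 groups. The young group (n = 6) was 4 months old and the old group (n = 8) 21 months, both labelled as controls. The third group (n = 8), also 21 months old, had eaten food with nicotinamide at 1.6 g per kg, a dose of 200 mg per kg body weight each day, for 14 weeks. The labels give no genetic change in any group. Sequencing was done from the 3′ ends of polyadenylated RNA (QuantSeq), with RNA of 10 to 20 mg of whole kidney.

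NAD is a redox carrier and is also used up by sirtuins, PARP enzymes and NAD glycohydrolases, which release nicotinamide. Cells rebuild NAD from nicotinamide through NAMPT, which makes nicotinamide mononucleotide (NMN), and the NMNAT enzymes, which join NMN to ATP. Nicotinic acid enters through NAPRT and is finished by NADSYN1, and nicotinamide riboside enters through NMRK1. NAD kinase, in the cytosol (NADK) and in mitochondria (NADK2), phosphorylates NAD to NADP, and the transhydrogenase NNT of the inner mitochondrial membrane passes hydride from NADH to NADP to give NADPH. The kidney is rich in mitochondria, and its proximal tubule also makes NAD from tryptophan.

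Depth was 3351065 to 8319865 gene counts per library, and 14683 genes passed the filter on low counts, all 9 enzymes among them. Levels are counts per 1000000 of the scaled library total (CPM). Markers of kidney were present throughout: Slc34a1, the phosphate transporter of the proximal tubule, stood at 1362 to 3641 CPM and Umod, made in the loop of Henle, at 724 to 2344 CPM. Earlier work on these data set 4 kidneys apart: young replicate 6, which had the lowest depth, old replicate 7, and nicotinamide replicates 1 and 7. In their groups, old replicate 7 and nicotinamide replicate 1 had the highest Adipoq (adipocyte marker) and Psca (urothelial marker). Adipoq was 7.80 and 60.7 CPM there, with group medians of 0.694 and 2.06 CPM. Psca was 42.1 and 49.8 CPM, with medians of 6.49 and 13.7 CPM. Nicotinamide replicate 7 had the highest Cd3e (lymphocyte marker) of its group, 16.8 CPM with a median of 2.49 CPM. The part of such tissue differences in the results was not tested. Where leaving out the 4 kidneys changed whether an enzyme or related gene passed the test, both outcomes are given.

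Nampt had the highest counted level of the 9 transcripts, with a mean of 102 CPM over the 22 kidneys, followed by Nadk with 80.3 CPM. A 3′ tag is counted once per transcript, so these counts do not scale with transcript length. How completely the tags are counted can differ between genes, so the order is one of counted tags, not of transcripts. Nampt exceeded Nadk in 21 of 22 kidneys, and Nadk exceeded Nmrk1 (39.9 CPM) in 22 of 22. Nmrk1 in turn exceeded Naprt (17.0 CPM) in 22 of 22. Below these the order was less clear. Naprt exceeded Nadk2 (15.1 CPM) in 15 of 22 kidneys, and Nadk2 exceeded Nnt (11.3 CPM) in 19. The 3 enzymes at the foot of the order, Nmnat3 (9.05 CPM), Nadsyn1 (9.01 CPM) and Nmnat1 (7.72 CPM), could not be ranked, since Nmnat3 exceeded Nadsyn1 in 12 of 22 kidneys and Nadsyn1 exceeded Nmnat1 in 14.

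The Nnt level is a lower limit. In the GENCODE M21 annotation all 3339 exon bases of the second Nnt entry lie within the first on the same strand, along with 420 of the last 500 exon bases of the first. By default HTSeq sets aside a read that falls in 2 genes, and the second entry had 0 counts in all 22 libraries while the first had 44 to 97. The C57BL/6J substrain is known for a deletion of internal Nnt exons. A 3′ read does not cross them, so these counts do not show whether C57BL/6JRj animals carry it. Of the other 8 enzymes, only Naprt shares exon bases with another gene (277 of 2344, with Eef1d), and 0 of these are among its last 500.

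**Figure D1:**
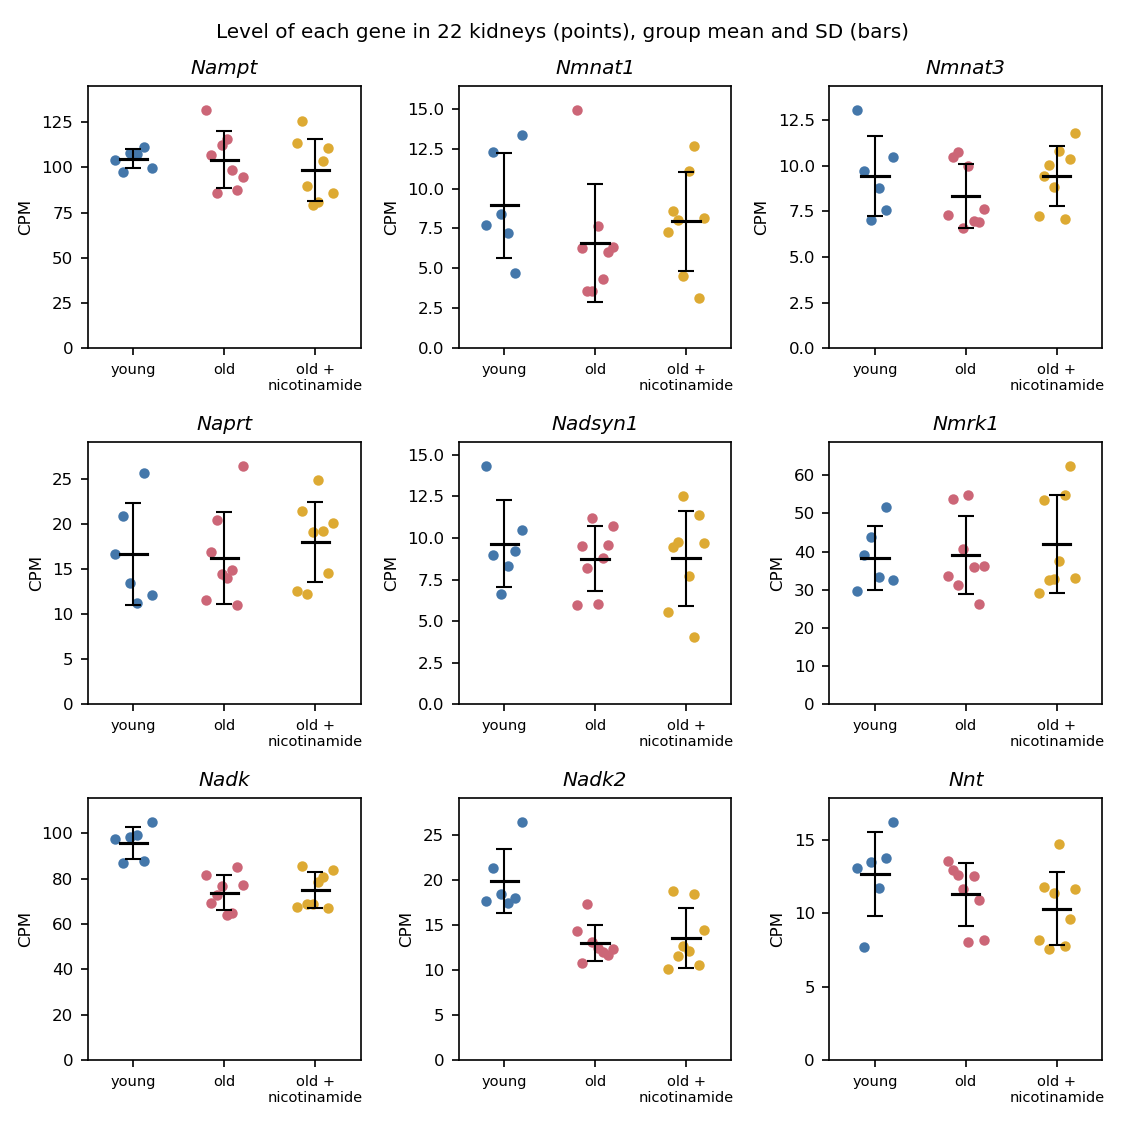
Level of each of the 9 enzymes in every kidney, in CPM on an axis that starts at 0, by group (young n = 6, old n = 8, old with nicotinamide n = 8); each point is 1 kidney and the bars mark the group mean and SD. The young kidneys lie above all old kidneys for Nadk (lowest young 86.9 CPM, highest old 85.2 CPM) and Nadk2 (17.4 and 17.3 CPM), and the groups overlap for the other 7.

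Age was compared first, old against young control kidneys. Both NAD kinases were lower in old kidneys, by 1.29-fold for cytosolic Nadk and 1.52-fold for mitochondrial Nadk2. None of the 6 salvage enzymes and not Nnt passed the test. Thus 2 of 9 enzymes passed, 0 higher and 2 lower (edgeR, adjusted p under 0.05). The background is that 7.04% of all 14683 genes passed, 3.90% higher and 3.15% lower. The median log2 fold change of the 9 enzymes was −0.15, with 8 of 9 below 0, against 0.01 and 48.1% over all genes.

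Nadk counts were 330 to 706 per library. Young kidneys had 86.9, 98.0 and 105 CPM as the lowest, median and highest value, and old kidneys 63.8, 74.8 and 85.2 CPM. All 8 old kidneys lay below the lowest young kidney, although the nearest values of the groups were 86.9 and 85.2 CPM. The means ± SD were 95.8 ± 7.08 CPM for the 6 young and 73.9 ± 7.67 CPM for the 8 old animals. The log2 fold change was −0.37 ± 0.09 (SE; 95% interval −0.55 to −0.19; edgeR adjusted p = 0.00645). Groups that do not overlap, with old the lower, were found for 1.31% of all genes.

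Because Nadk was the enzyme with the firmest difference, the letters upstream of its start sites are shown. RefSeq windows (GRCm38.p6) were at hand for 6 of the 9 enzymes, as 8 windows of 250 bases up to the start. Nadk has 2 such starts on the + strand of chromosome 4. A set of 4 motifs was searched on both strands: CACGTG (the E-box core), GGGCGG (the GC box), TATAAA (the TATA box) and TGACNNNGC (the antioxidant response element core); matches are in capitals.
Nadk upstream start, chr4:155562131-155562380: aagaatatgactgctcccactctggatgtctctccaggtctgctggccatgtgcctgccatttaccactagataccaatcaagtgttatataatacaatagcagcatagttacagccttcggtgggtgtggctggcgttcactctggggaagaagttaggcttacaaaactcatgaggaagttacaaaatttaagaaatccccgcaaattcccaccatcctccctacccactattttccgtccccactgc
Nadk downstream start, chr4:155563565-155563814: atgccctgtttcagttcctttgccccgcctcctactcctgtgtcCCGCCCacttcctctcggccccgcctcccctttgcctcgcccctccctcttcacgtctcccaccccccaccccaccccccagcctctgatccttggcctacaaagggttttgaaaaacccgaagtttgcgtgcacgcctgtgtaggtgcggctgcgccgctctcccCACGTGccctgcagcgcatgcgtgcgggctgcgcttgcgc
The upstream window has none of the 4 motifs, 46.8% GC and 4 CpG dinucleotides. The downstream window has 66.0% GC and 18 CpGs, with 1 E-box core and 1 GC box (read from the other strand), which do not overlap. Over 32817 windows of the same length the median GC was 52.4%, 6.02% held the E-box core and 32.7% the GC box. The TATA box (12.4% of windows) and the response element core (10.2%) were in none of the 8 windows of the enzymes, and of these windows 1 held the E-box core. A match is a description of the letters, and 3′ reads do not tell which start was used.

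Nadk2, the kinase with fewer counts, showed the larger fold and the wider interval. Its counts were 67 to 154 per library. Young kidneys had 17.4, 18.2 and 26.4 CPM as the lowest, median and highest value, and old kidneys 10.8, 12.4 and 17.3 CPM. Here too the 8 old kidneys lay below the lowest of the 6 young, but only just (17.3 against 17.4 CPM). Most old kidneys were well below: the next highest after old replicate 3 (17.3 CPM) was old replicate 1 with 14.3 CPM. The means were 19.9 ± 3.51 and 13.0 ± 2.02 CPM (SD). The log2 fold change was −0.60 ± 0.17 (SE; 95% interval −0.94 to −0.26; edgeR adjusted p = 0.0212).

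The Nadk call held under all 36 alternative settings, with adjusted p between 0.00140 and 0.0271. That of Nadk2 was lost under 5 of 36, though its log2 fold change stayed between −0.68 and −0.49. Adjusted p rose to 0.0546 without young replicate 2 and to 0.0686 without young replicate 6, which held the highest Nadk2, Nadk, Nmnat1 and Nnt values of the young group. Without the 4 kidneys set apart it was 0.0811 (log2 fold change −0.49), and the count of enzymes that passed fell from 2 to 1. Of the 36 settings, 22 left out a single kidney. These include each of the 8 nicotinamide kidneys, which belong to neither group compared here, so such settings test these calls little.

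**Figure D2:**
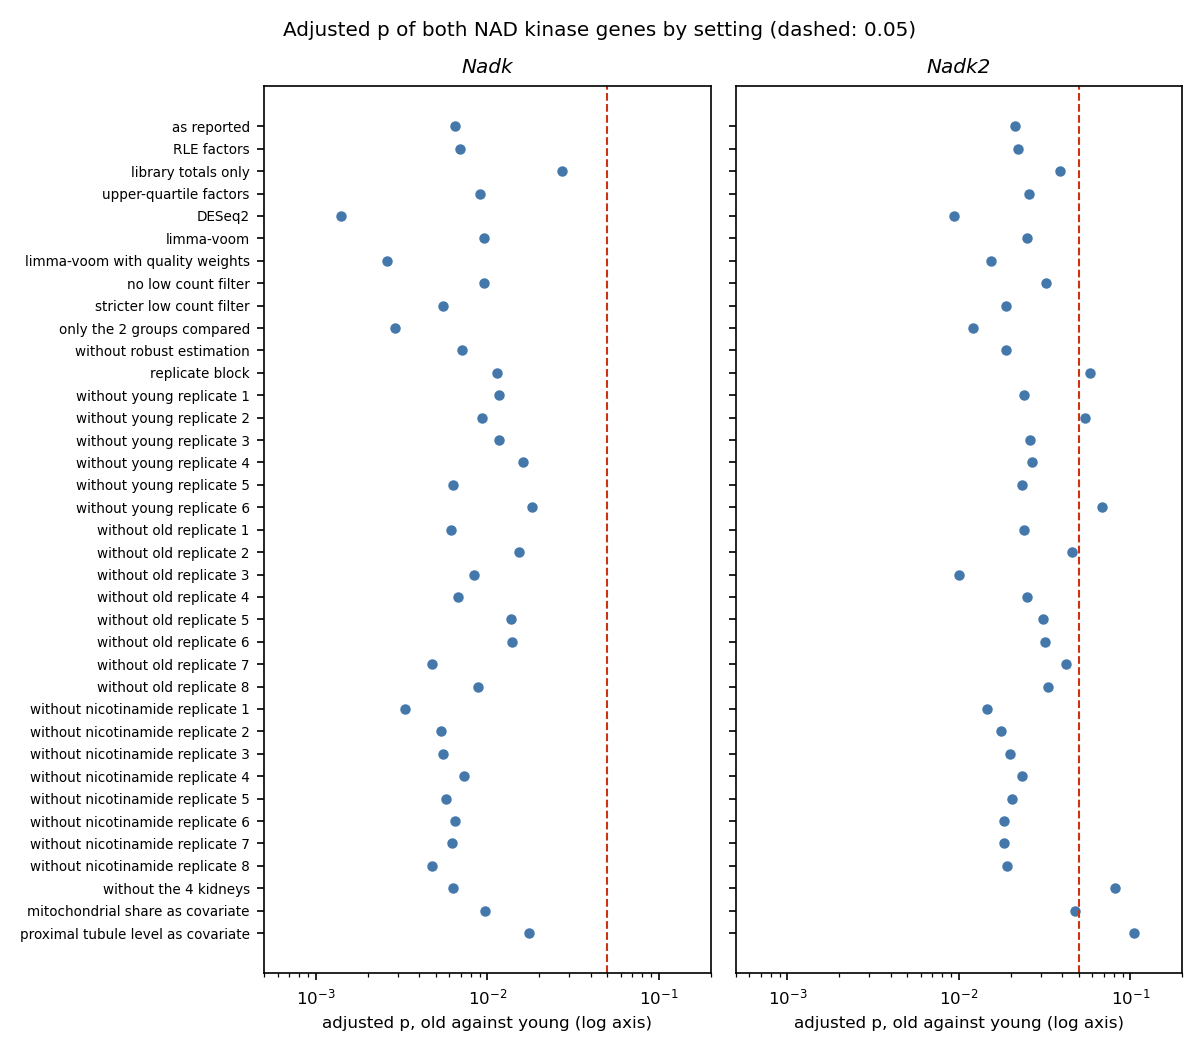
Adjusted p of Nadk and Nadk2, old against young, on a log axis, for the fit as reported and its 36 alternatives, 1 point per setting; the dashed line marks 0.05. All Nadk points lie left of the line, and 5 of 36 alternatives put Nadk2 to its right.

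Markers of cell types moved with age as well, where 3.90% of all genes passed as higher and 3.15% as lower. The summed level of 8 proximal tubule markers (S1 and S2 segments) had 7023, 7740 and 8722 CPM as the lowest, median and highest value in young kidneys and 5636, 6441 and 7623 CPM in old, with 0 of 8 markers past the test and none at 0. The markers did not all move alike. Their median log2 fold change was −0.19, while Slc5a12 had 0.22 and Cubn 0.002. In an edgeR fit with the mean log2 CPM of these 8 markers as a covariate, Nadk had a log2 fold change of −0.35 (adjusted p = 0.0176). That of Nadk2 was −0.49 (adjusted p = 0.105). Of 8 macrophage markers, 7 rose with age and their sum was 124 to 151 CPM for young and 207 to 385 CPM for old kidneys, with none at 0. Of 4 tested tubular injury markers 3 rose, with a sum of 16.9 to 41.3 CPM and 59.0 to 111 CPM, and of 4 tested lymphocyte markers 2 rose. The part of these macrophage, injury and lymphocyte markers in the Nadk and Nadk2 differences was not tested. Of 9 mitochondrially encoded genes looked at, 6 passed the filter. The share of counts from these 9 genes was 16.3 to 19.1% in young and 13.8 to 17.7% in old kidneys. With that share as a covariate adjusted p was 0.00973 for Nadk and 0.0478 for Nadk2. In whole tissue, fewer cells of a type and less RNA per cell cannot be told apart.

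The salvage enzymes overlapped between young and old, each with an interval that bounds the difference. Nampt, the rate-limiting step from nicotinamide, was 97.7, 106 and 111 CPM (lowest, median, highest) in young and 85.7, 103 and 132 CPM in old kidneys, and 3 old kidneys lay below and 3 above the whole young range. The ratio of old to young was 0.995 with a 95% interval of 0.863 to 1.15 (edgeR adjusted p = 0.981). Of the salvage enzymes Nampt had the tightest interval. Old kidneys spread more widely (SD 15.7 CPM) than young (SD 5.21 CPM), a difference in spread that was not tested.

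Nmnat1, the nuclear NMNAT, had 4.70, 8.07 and 13.4 CPM in young and 3.55, 6.14 and 14.9 CPM in old kidneys as lowest, median and highest value. Its log2 fold change was −0.43 (95% interval −1.04 to 0.18; edgeR adjusted p = 0.451), and 7 of 8 old kidneys lay below the young median. The exception was old replicate 1, with the highest value of all 22 kidneys. Without it the log2 fold change was −0.73 (adjusted p = 0.125). Nmnat3, placed in mitochondria, had 7.06, 9.24 and 13.1 CPM in young and 6.57, 7.47 and 10.8 CPM in old kidneys (log2 fold change −0.18, interval −0.59 to 0.24, edgeR adjusted p = 0.696). Halving or doubling of Nmnat3 lies outside that interval, while for Nmnat1 a halving does not.

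The entry points for nicotinic acid and nicotinamide riboside showed no difference beyond the spread between kidneys. Naprt had 11.3, 15.1 and 25.7 CPM in young and 11.0, 14.7 and 26.5 CPM in old kidneys as lowest, median and highest (log2 fold change −0.05, interval −0.46 to 0.35, edgeR adjusted p = 0.925). Nadsyn1 had 6.60, 9.11 and 14.3 CPM in young and 5.95, 9.15 and 11.2 CPM in old kidneys (log2 fold change −0.14, interval −0.61 to 0.33, edgeR adjusted p = 0.800). Nmrk1 had 29.6, 36.1 and 51.7 CPM in young and 26.3, 36.2 and 54.9 CPM in old kidneys (log2 fold change 0.02, interval −0.36 to 0.41, edgeR adjusted p = 0.963). For these genes the medians of young and old differed by less than 1 CPM. Nnt had 7.69, 13.3 and 16.2 CPM in young and 8.02, 12.1 and 13.6 CPM in old kidneys (log2 fold change −0.15, interval −0.54 to 0.24, edgeR adjusted p = 0.729), on the part of its reads that was counted.

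**Figure D3:**
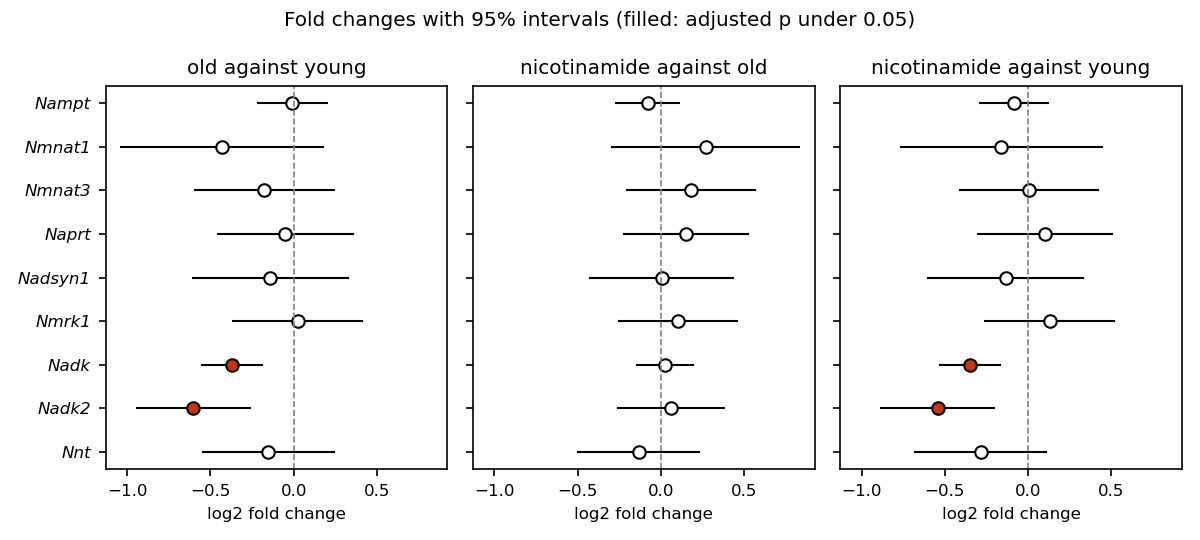
Log2 fold change of the 9 enzymes in the 3 comparisons, with 95% intervals from the edgeR fit; the vertical line marks no difference and filled points passed at adjusted p under 0.05. With age Nadk (−0.37) and Nadk2 (−0.60) lie below 0 with intervals that exclude it, and with nicotinamide all 9 intervals include 0.

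Nicotinamide, the substrate of NAMPT, in the food was then compared with the control condition in old mice. None of the 9 enzymes passed the test (0 of 9 in edgeR, also 0 in DESeq2 and in limma-voom, and 0 at an unadjusted p under 0.05), and 0 passed in all 36 alternatives. The background was 4 of 14683 genes, 0.0272%, and 907 genes had an unadjusted p under 0.05. The median log2 fold change of the enzymes was 0.06, with 2 of 9 below 0, against 0.01 and 48.7% over all genes.

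Nampt had 79.0, 96.7 and 126 CPM as lowest, median and highest value with nicotinamide, and the ratio to old kidneys was 0.946 (95% interval 0.830 to 1.08). Nadk had 67.0, 73.8 and 85.8 CPM, within the range of untreated old kidneys but for replicate 2, which exceeded its top by under 1 CPM. Its ratio was 1.02 (interval 0.905 to 1.14). Nadk2 had 10.1, 12.4 and 18.7 CPM and a ratio of 1.04 (interval 0.837 to 1.30). These 3 intervals are the narrowest of the 9.

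The other 6 enzymes had wider intervals. Nmnat1 had 3.15, 8.09 and 12.7 CPM (ratio 1.20, interval 0.816 to 1.78), and without old replicate 1 its log2 fold change rose from 0.27 to 0.56 (edgeR adjusted p = 0.863). Nmnat3 had 7.10, 9.78 and 11.8 CPM (ratio 1.13, interval 0.869 to 1.48), Naprt 12.3, 19.2 and 24.9 CPM (ratio 1.11, interval 0.859 to 1.44) and Nadsyn1 4.06, 9.60 and 12.5 CPM (ratio 1.002, interval 0.743 to 1.35). The kidneys with nicotinamide overlapped the old controls for each of these. Nmrk1 had 29.1, 35.4 and 62.5 CPM (ratio 1.08, interval 0.841 to 1.38), with 2 kidneys above all old controls. Nnt had 7.56, 10.5 and 14.7 CPM (ratio 0.912, interval 0.708 to 1.17), and 7 of 8 kidneys lay below the old median. The largest log2 fold change was that of Nmnat1, and edgeR adjusted p over the 9 was 0.933 or more.

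Old kidneys with nicotinamide were also set against young kidneys. This comparison shares its libraries with the other two, so that it gives no independent support. The 2 NAD kinases were the enzymes that passed, 0 higher and 2 lower of 9, against 8.70% of all genes in either direction, 4.73% higher and 3.96% lower. For Nadk, all 8 kidneys with nicotinamide were below the lowest young kidney, a pattern found for 1.08% of all genes, and the log2 fold change was −0.35 ± 0.09 (SE; interval −0.53 to −0.17; edgeR adjusted p = 0.00895). For Nadk2 it was −0.54 ± 0.17 (interval −0.88 to −0.20; edgeR adjusted p = 0.0338), with 6 of 8 kidneys below the lowest young kidney. The other 2, replicates 2 (18.7 CPM) and 6 (18.4 CPM), lay within the young range.

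Calls in this comparison were less firm than in the age comparison. Nadk was lost when libraries were scaled by their totals alone (log2 fold change −0.27, adjusted p = 0.0562) and without the 4 kidneys set apart (−0.27, 0.0819). Nadk2 was lost in 12 of 36 settings. Of kidneys left out singly, these were young replicate 2 (0.0825) and 6 (0.108) and nicotinamide replicates 1 (0.0738), 3 (0.0548), 4 (0.0536) and 7 (0.0664), with log2 fold changes of −0.63 to −0.45 over all kidneys left out singly. Without the 4 kidneys, where both calls were lost, Nadk2 moved from −0.54 to −0.34 with a similar standard error (0.17 and 0.18; adjusted p = 0.318). The proximal tubule markers summed to 4140, 6690 and 7278 CPM with nicotinamide (lowest, median, highest). With the mean log2 CPM of these markers as a covariate Nadk2 had an edgeR adjusted p of 0.189. Nnt had a log2 fold change of −0.28 (interval −0.68 to 0.11; edgeR adjusted p = 0.422), and the other 6 lay between −0.16 and 0.13.

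Spread between kidneys differed among the enzymes. Within groups the coefficient of variation was 9.70% for Nadk and 14.2% for Nampt, and 45.5% for Nmnat1, whose counts ran from 21 to 98. The part that counting alone gives was 4.54%, 4.04% and 15.8% in the same order. For the other 6 it was 19.9 to 29.9% within groups against 6.61 to 14.0% from counting.

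Over the 22 kidneys, with group means removed, 36 pairs of enzymes were correlated and 0 passed after Benjamini-Hochberg adjustment. The NAD kinases had Pearson r = 0.52 (permutation p = 0.0213, adjusted p = 0.383) and Spearman rho = 0.48 (permutation p = 0.0362, adjusted p = 0.330), and r was 0.54 without the 2 kidneys farthest from the median. Nampt and Nmrk1 had r = 0.51 (permutation p = 0.0335, adjusted p = 0.402) and rho = 0.52 (permutation p = 0.0277, adjusted p = 0.330), with r = 0.58 without the 2 farthest. Nmnat1 and Nadsyn1 went in opposite directions with r = −0.52 (permutation p = 0.0198, adjusted p = 0.383) and rho = −0.41 (permutation p = 0.0738, adjusted p = 0.435), with r = −0.40 without the 2 farthest. Without the 4 kidneys r was 0.44 for the NAD kinases, 0.56 for Nampt with Nmrk1 and −0.58 for Nmnat1 with Nadsyn1. The points of each pair share library depth and scaling, and also 0 pairs passed without the 4 kidneys or with library totals.

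**Figure D4:**
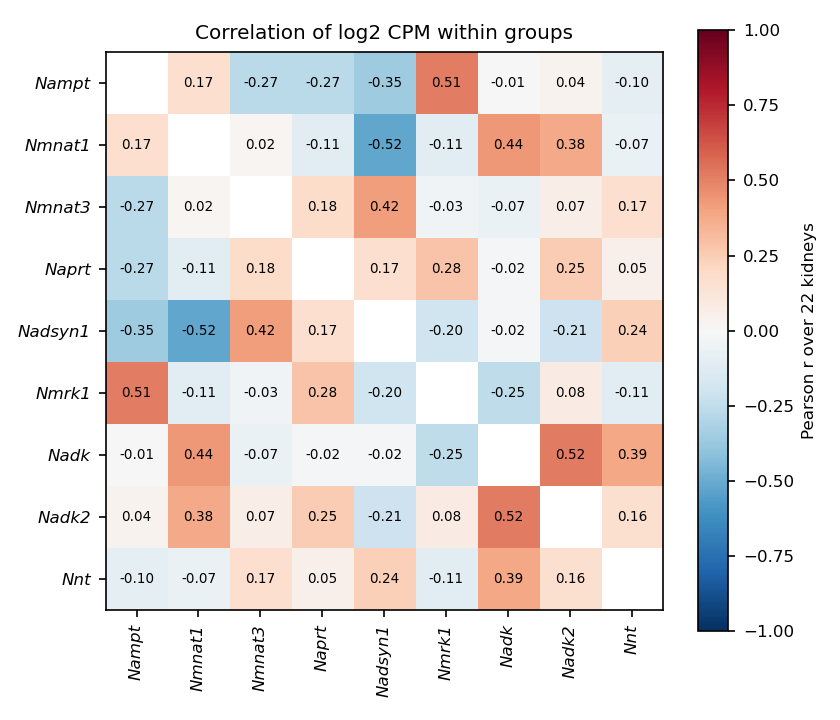
Pearson r between the 9 enzymes over 22 kidneys, from log2 CPM with group means removed; colour gives r from −1 to 1. Nadk with Nadk2 (0.52), Nampt with Nmrk1 (0.51) and Nmnat1 with Nadsyn1 (−0.52) are farthest from 0, and 0 of 36 pairs passed after adjustment.

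Of 10872 genes with a mean of at least 5 CPM, those most like Nadk by the same measure over 22 kidneys were Hspb6 (r = 0.74), a small heat shock protein, Aftph (r = 0.72), a trafficking adaptor, and Sbk1 (r = 0.72), a kinase. Those most like Nadk2 were Sod2 (r = 0.82), the mitochondrial superoxide dismutase, Hibadh (r = 0.78), a mitochondrial enzyme of valine breakdown, and AC117816.1 (r = 0.75). These are the highest values of many and carry no test.

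The rest of the NAD network was read in the same fit, where 7.04% of all genes passed with age. At that share, 0 in a short list says little about the list. Other salvage genes gave 0 of 3 tested past the threshold with age (median log2 fold change −0.32). The lowest p there was that of Pnp, purine nucleoside phosphorylase, with −0.39 (edgeR adjusted p = 0.0777; 0.0438 without young replicate 5), a gene whose reads a similar copy, Pnp2, may share. Nmrk2 had 0 counts in all libraries and Nmnat2 was below the filter. The kynurenine route from tryptophan gave 0 of 7 (median −0.22), with the lowest p for Haao (−0.22, edgeR adjusted p = 0.231). Kynu, kynureninase, was near the filter, with 0, 0.385 and 5.73 CPM as lowest, median and highest value for young and 0.547, 3.50 and 5.80 CPM for old kidneys, and the highest young value was that of replicate 6. Its log2 fold change was 1.21 (edgeR adjusted p = 0.270), and 2.21 without young replicate 6 (0.0265) and 2.33 without the 4 kidneys (0.0178), where it passed as higher. NAD-consuming and nicotinamide-clearing genes gave 0 of 12 (median 0.13), with the lowest p for Sirt3, the mitochondrial deacetylase, at −0.32 (edgeR adjusted p = 0.0804). Its adjusted p was 0.0285 without old replicate 8. Bst1, an NAD glycohydrolase, had 1.19 (edgeR adjusted p = 0.136), and passed as higher without young replicate 5 (1.83, 0.00965) and with no filter (1.19, 0.0450). Nnmt, which methylates nicotinamide, was below the filter, with 0 to 6 counts per young library, 4 to 14 per old control and 3 to 12 per nicotinamide library.

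NADPH-producing enzymes gave 0 higher and 3 lower of 9 (median −0.07), where 3.90% of all genes passed as higher and 3.15% as lower. Me1, cytosolic malic enzyme, fell from 276 ± 23.2 CPM (SD, 6 young) to 201 ± 15.8 CPM (8 old), a log2 fold change of −0.46 ± 0.09 (SE; edgeR adjusted p = 0.00107), and held in all 36 settings. The one-carbon enzymes Mthfd1 (−0.36 ± 0.11, edgeR adjusted p = 0.0370) and Aldh1l1 (−0.27 ± 0.09, edgeR adjusted p = 0.0461) passed narrowly. Mthfd1 was lost in 11 of 36 settings and Aldh1l1 in 21. For Mthfd1 the kidneys whose removal did so were young replicates 1 (0.123), 2 (0.0868) and 4 (0.0751) and old replicates 2 (0.0620), 4 (0.0507), 6 (0.0781) and 7 (0.0877). For Aldh1l1, leaving out any of 11 kidneys (young replicates 1, 2, 4, 5 and 6, old replicates 1, 2, 5, 6, 7 and 8) gave an adjusted p of 0.0507 to 0.135. Without the 4 kidneys Aldh1l1 was lost (edgeR adjusted p = 0.0692), and the list had 2 lower. With the proximal tubule covariate the list had 1 lower.

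Genes of NAD(P) repair, hydrolysis and transport gave 1 higher and 2 lower of 9 (median −0.06), against the same 3.90% and 3.15% of all genes. Slc5a8, a sodium-coupled carrier of lactate and nicotinic acid, fell from 185 to 124 CPM (log2 fold change −0.58 ± 0.10, edgeR adjusted p = 0.000299) and held in all 36 settings. It is also 1 of the 5 S3 proximal tubule markers, of which 1 fell and 1 rose, Slc6a18 (0.39, edgeR adjusted p = 0.00625), while their sum had a median of 1153 CPM for young and 1161 CPM for old kidneys. Naxd, which repairs hydrated NAD(P)H, was lower (−0.39 ± 0.12, edgeR adjusted p = 0.0466), and Nudt13, a mitochondrial NAD(P)H pyrophosphatase, was higher (0.53 ± 0.16, edgeR adjusted p = 0.0354; 13.1 to 19.0 CPM). Both were sensitive to single kidneys. Naxd was lost in 16 of 36 settings, among them without young replicates 2, 4 or 6 or old replicates 1, 2, 3, 5, 6 or 7 (adjusted p 0.0531 to 0.156). It was also lost without the 4 kidneys (edgeR adjusted p = 0.0838). Nudt13 was lost in 11, among them without young replicates 2, 3, 4 or 6 or old replicates 1, 2, 5 or 6 (0.0524 to 0.0996). Nudt12, a peroxisomal NADH pyrophosphatase, had −0.45 (edgeR adjusted p = 0.0597) and passed as lower in 5 settings, among them without old replicate 4 (0.0312) or nicotinamide replicate 1 (0.0492) or 7 (0.0444).

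**Figure D5:**
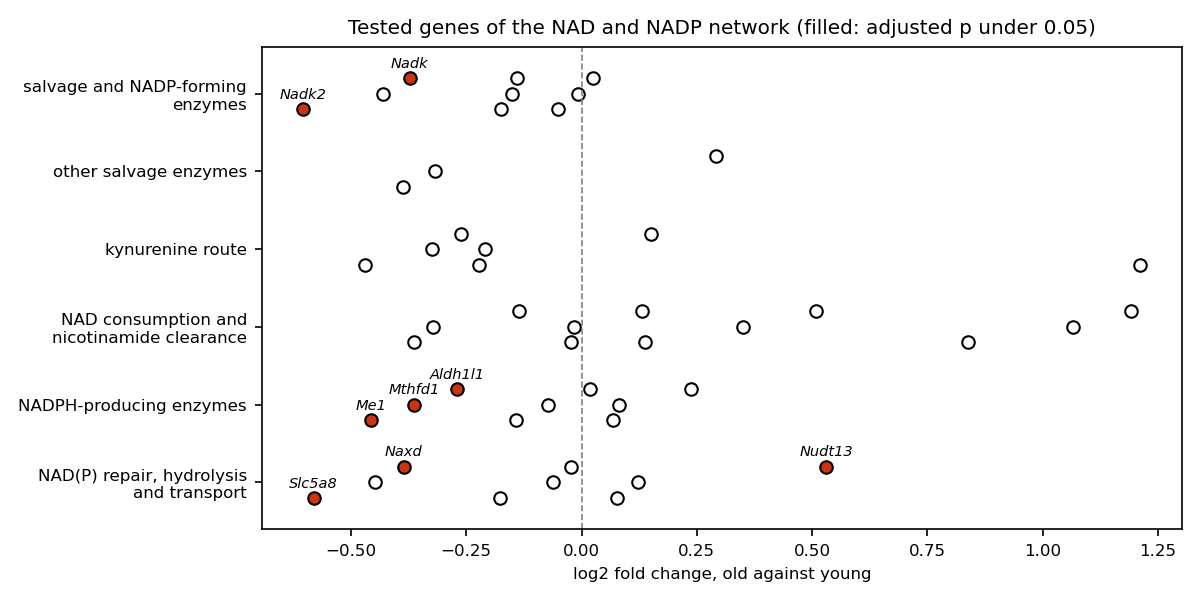
Log2 fold change, old against young, of the tested genes of the NAD network in its lists, 1 point per gene; filled points passed at adjusted p under 0.05. The NAD kinases, Me1 (−0.46) and Slc5a8 (−0.58) lie below 0, Nudt13 (0.53) above it.

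With nicotinamide in old mice, 0 genes passed in any of these lists, by edgeR, where 0.0272% of all genes passed. The lowest p in each was that of Nt5e (−0.29, adjusted p = 0.719), Acmsd (−0.25, 0.782), Sirt7 (0.22, 0.807), Me3 (−0.21, 0.889) and Nudt12 (0.26, 0.811), where Nt5e and Acmsd had an unadjusted p under 0.05. Against young kidneys, the nicotinamide group was lower in Nt5e, the ecto-5′-nucleotidase (−0.60, edgeR adjusted p = 0.00228), and in Acmsd, which diverts the kynurenine route from NAD (−0.51, edgeR adjusted p = 0.00895; 0.0702 with the proximal tubule covariate). Me1 (−0.46, edgeR adjusted p = 0.000819) and Slc5a8 (−0.67, edgeR adjusted p = 3.39e-05) were lower as well. Sirt1 passed narrowly (−0.51, edgeR adjusted p = 0.0458) and was lost in 15 of 36 settings. Among these were young replicates 2, 3, 4 or 5 or nicotinamide replicates 1, 2, 5, 7 or 8 left out (0.0591 to 0.117). Sirt1 was also lost without the 4 kidneys (edgeR adjusted p = 0.0606). Other genes passed against young under some settings. Kynu (1.38, edgeR adjusted p = 0.181) did so in 4, among them without young replicate 6 (2.38, 0.0142) and without the 4 kidneys (2.25, 0.0300), and Bst1 (1.13, 0.146) without young replicate 5 (1.77, 0.00971). Nudt13 (0.48, edgeR adjusted p = 0.0545) passed in 8, among them without old replicate 7 (0.0499) or nicotinamide replicate 6 (0.0177). Mthfd1 (−0.31, edgeR adjusted p = 0.0680) passed in 4, among them without young replicate 3 (0.0353) or nicotinamide replicate 8 (0.0234), and Aldh1l1 (−0.22, 0.0981) in 2, among them without nicotinamide replicate 8 (0.0391).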

How the data were processed

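Kidney RNA of 22 mice was sequenced from the 3′ end, 1 library per animal. The deposited table holds raw read counts per mouse Ensembl gene, made by the authors with STAR and HTSeq per the submitters' processing notes; the sources used here give no versions, strand setting or duplicate removal. These notes name GRCh38, a human build, while the identifiers are of mouse, so no gene coordinates were taken from them. Symbols and exon overlaps came from GENCODE M21, and the coordinates of the Nadk windows from RefSeq (GRCm38.p6). The table had 5 HTSeq summary entries, left out of totals. Ambiguous reads were 0.512 to 0.569% of the reads counted to a gene, to no feature or as ambiguous. No columns were left without a sample. All 71 pairs of libraries within groups differed by more than counting error.

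Counts entered 1 quasi-likelihood fit in edgeR 4.0.16 (R 4.3.3; TMM factors, robust, filterByExpr with minimum count 10) of all 22 libraries, two-sided, with Benjamini-Hochberg adjustment over 14683 genes and a threshold of 0.05. Each adjusted p of a gene is from this test unless another tool is named. A standard error is the size of a log2 fold change divided by the root of its F statistic. Alternatives were other scalings, DESeq2 1.42.0, limma 3.58.1 voom, other filters, a replicate block, covariates and leaving out kidneys. The fit was tested on simulated data. Correlations used log2 CPM with a prior count of 2, and 100000 shuffles within groups.

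Named genes are all 9 enzymes, the genes of each related list that passed or else had the lowest p, and the 3 genes most like an enzyme that passed. Kynu, Bst1, Nudt12, Slc6a18 and the genes of these lists that passed under another setting were added after their values were seen. So were the markers Adipoq, Psca, Cd3e, Slc5a12 and Cubn. The enzymes and lists were chosen with earlier results of these data known. Replicates are separate animals, so the tests weigh a difference between groups against the spread between animals. They cannot tell age or diet from anything else that a whole group shared. Same-numbered libraries of different groups were not paired by the labels, and the correlations of their deviations were −0.143 to 0.0978 over 20 pairs.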

Additional observations from a re-analysis of the deposited data

Results flagged for a closer look

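Nmnat1 in old replicate 1 was far from the other old kidneys: 14.95 CPM, where the next highest was 7.66 CPM and the lowest 3.55 CPM, so that the gap to its neighbour was 0.64 of the whole range of the 8 kidneys. In all, 27 sets of values (9 enzymes in 3 groups) were examined in this way, and chance alone would mark about 1 in 20. Without that kidney the log2 fold change of Nmnat1, old against young, moved from −0.43 to −0.73 (edgeR adjusted p = 0.125) and did not pass.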

How the results depend on the processing

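Of the enzymes, 2 passed with age; 1 passed with a replicate block, without the 4 kidneys or with the proximal tubule covariate, and 1 to 2 when each kidney was left out in turn. For nicotinamide against young, 2 passed; 0 did with library totals or without the 4 kidneys, 1 did with no filter, with only the 2 groups compared, with the replicate block or with the proximal tubule covariate, and 1 to 2 when each kidney was left out. With the block Nadk2 had an adjusted p of 0.0582 (old against young) and 0.0706 (nicotinamide against young), and it ended no other call of the 9 enzymes. In the related lists it ended those of Aldh1l1 (0.0639) and, against young, Sirt1 (0.112), while Sirt3 (0.0322, age) and, against young, Mthfd1 (0.0422) and Nudt13 (0.0466) passed. It gave 904 genes in all with age and 1081 against young. Of 20 same-numbered pairs 0 had a correlation over 0.1. Without known pairs to compare, this cannot decide whether same-numbered kidneys were handled together. The cause of these losses was not tested.

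Signs changed only where no call was made. With age, Nampt was 0.0499 with library totals, 0.00752 with upper-quartile factors, 0.0115 with the block and 0.0151 without the 4 kidneys. Naprt was 0.00548 with library totals, 0.00202 with the mitochondrial covariate and 0.13 with the tubule covariate, Nmrk1 −0.00313 in limma-voom and −0.0135 with the mitochondrial covariate, and Nadsyn1 0.0430 with the tubule covariate. With nicotinamide against old, Nadsyn1 was −0.0525 in limma-voom, −0.00918 with the block and −0.0606 with the mitochondrial covariate, and Nmrk1 −0.00557 without the 4 kidneys. Against young, Nampt was 0.00491 with library totals, Nmnat3 −0.0172 with the block and −0.0186 with the mitochondrial covariate, Nmnat1 0.13 without the 4 kidneys and Nadsyn1 0.0561 with the tubule covariate.

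When each kidney was left out in turn, the old against young ranges were −0.0707 to 0.0258 (Nampt), −0.18 to 0.10 (Naprt), −0.0683 to 0.12 (Nmrk1) and −0.24 to 0.00230 (Nadsyn1). For nicotinamide against old they were −0.0861 to 0.11 (Nadsyn1), −0.00466 to 0.0550 (Nadk) and −0.0209 to 0.13 (Nadk2), and against young −0.23 to 0.00833 (Nadsyn1) and −0.0767 to 0.12 (Nmnat3).

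Over all genes, 1034 passed with age, 540 with the tubule covariate, and 668 to 1305 with a kidney left out (668 without young replicate 4, 670 without young replicate 2). Nicotinamide against old gave 4, and 10 in DESeq2, 7 with quality weights, no filter or either covariate, 2 without robust estimation, and 1 to 9 with a kidney left out. Nicotinamide against young gave 1277, 801 without the 4 kidneys, 706 with the tubule covariate and 835 without young replicate 2. Scaling by library totals moved the share of higher calls from 55.3 to 70.3% (age) and from 54.4 to 75.9% (nicotinamide against young), and the median log2 fold change of all genes to 0.07 and 0.10. Depth limits Nmnat1, Nadsyn1 and Nmnat3 most, where counting alone gives a coefficient of variation of 13.7 to 15.8%.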
